A study of Rattus norvegicus with 4 samples.

Results

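Ion exchangers and cotransporters of the Slc4, Slc8, Slc9, Slc12, Slc24, Slc26, Slc30, Slc39 and Slc41 families were described in rat tendon stem/progenitor cells (TSPCs), the resident cells of tendon that can renew themselves and differentiate. Members were all genes whose symbol in the deposited expression table starts with one of these 9 family names followed by a number, which gave 77 of 32623 rows. Of these, 74 encode transporters, and 3 carry a family name without being one: Slc4a1ap (kanadaptin) and the scaffold proteins Slc9a3r1 and Slc9a3r2. The study sequenced whole-transcriptome libraries from TSPCs of rat tendon treated with the solvent DMSO (control) or with U0126, an inhibitor of the kinases MEK1 and MEK2 that activate ERK, with 2 libraries in each group. The labels number these as biological replicates but do not name the animal or culture behind each, which leaves p-values as measures of spread among the libraries alone. For strain, age, dose and exposure time the labels give nothing.

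These families move ions by coupling one ion's gradient to another's. Slc4 proteins carry bicarbonate and Slc9 proteins exchange sodium for protons, and together they set the pH of the cytosol and of organelles. Slc8 and Slc24 proteins expel calcium against sodium, Slc12 proteins move chloride with sodium or potassium and adjust cell volume, and Slc26 proteins exchange chloride, sulfate, bicarbonate and other anions. Slc30 (ZnT) proteins take zinc out of the cytosol, Slc39 (ZIP) proteins bring it in, and Slc41 proteins carry magnesium. In connective tissue, zinc and sulfate transporters serve matrix production in the secretory pathway, where loss of Slc39a13 or Slc26a2 is known to cause skeletal and connective tissue disease.

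Library totals were 38890310 and 42785190 counts for control and 38671289 and 36888913 counts for U0126. The 3 mesenchymal markers (Thy1, Pdgfrb, Nt5e) summed to 2341 and 2246 TPM (the deposited unit, normalized for gene length and depth) in the controls and 1501 and 1553 TPM with U0126: by edgeR, Thy1 fell and Pdgfrb and Nt5e rose. Of the 6 tendon fibroblast markers, Fmod and Scx rose, Col1a1 was abundant and Tnmd had only 0 to 5 counts per library. Their part in the results on the transporters was not tested. Macrophage, endothelial, epithelial, erythroid and glial marker lists each summed to at most 3.99 TPM in every library. In bulk RNA, fewer cells of a type and less RNA per cell cannot be told apart.

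Zinc carriers dominated the transporter transcripts of these cells. The 74 transporters summed to 1254 and 1331 TPM in the controls and to 1291 and 1402 TPM with U0126, and the Slc39 family made up 55.7 to 59.4% of that sum. Slc30 genes added 12.4 to 15.1% and Slc12 genes 9.98 to 10.9%. The zinc importers Slc39a7, Slc39a1 and Slc39a13 alone gave 41.1 to 43.4%. Of the 77 rows, 57 had enough counts to be tested, of which 45 averaged at least 1 TPM, and 25 transporters averaged at least 10 TPM. Of the 20 rows below the count filter, 13 had no count in any library: Slc4a1, Slc4a5, Slc9a4, Slc9a7, Slc12a1, Slc24a2, Slc26a5, Slc26a9, Slc30a2, Slc30a8, Slc30a10, Slc39a2 and Slc39a12. The other 7 (Slc4a8, Slc4a9, Slc9a2, Slc12a3, Slc12a8, Slc26a3 and Slc26a4) had 2 to 35 counts over the 4 libraries together. The plot of levels by family shows them in each library.

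**Figure D1:**
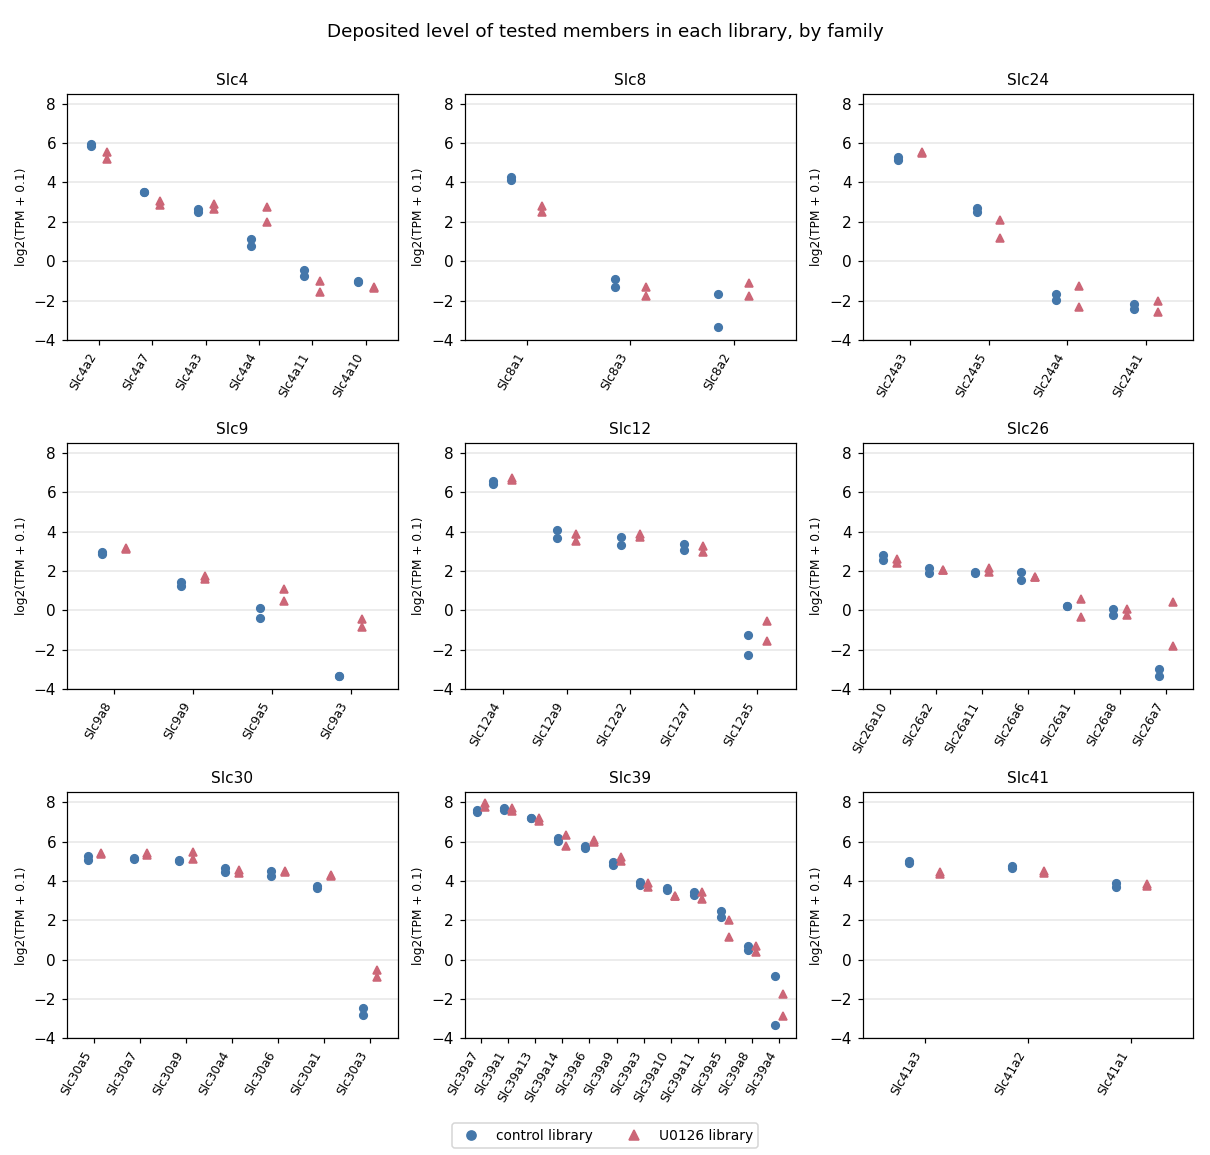
Level of tested transporters in each library, as log2 of the deposited TPM plus 0.1, by family, with 1 point per control or U0126 library. Slc39 holds the highest values, with Slc39a7 and Slc39a1 at means of 209 and 200.2 TPM, and Slc8a1 is the member whose control and U0126 points stand clearly apart at a moderate level.

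With U0126, 8 members rose and 4 fell at an edgeR adjusted p under 0.05, and 45 did not pass. The share called, 21.1% of 57, was close to the background of 19.9% of all 14023 genes tested, of which 8.41% rose and 11.5% fell. The genes that rose were the bicarbonate cotransporter Slc4a4, the proton exchanger Slc9a3, the anion exchanger Slc26a7, the zinc carriers Slc30a1, Slc30a3, Slc39a6 and Slc39a7, and Slc4a1ap. Those that fell were the bicarbonate carriers Slc4a2 and Slc4a7, the calcium exchanger Slc8a1 and the magnesium carrier Slc41a3. Of those that rose, Slc9a3, Slc26a7 and Slc30a3 passed the count filter only through their U0126 libraries. A call with at least a 2-fold change was made for 5 members, against a background of 8.04% of genes. The median log2 fold change over the tested members was 0.07, compared with 0.02 over all tested genes, and the libraries of the groups did not overlap for 35 members, against 62.8% of all genes. Scaled to library totals alone, without TMM factors, the split was 5 higher and 5 lower. Leaving out 1 library leaves a group with a single library, and the number of calls then moved over all genes as well as over the members. Both numbers were smaller without a control library and larger without a U0126 library. Only the calls of Slc8a1 and Slc9a3 held under all 11 alternatives tried.

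**Figure D2:**
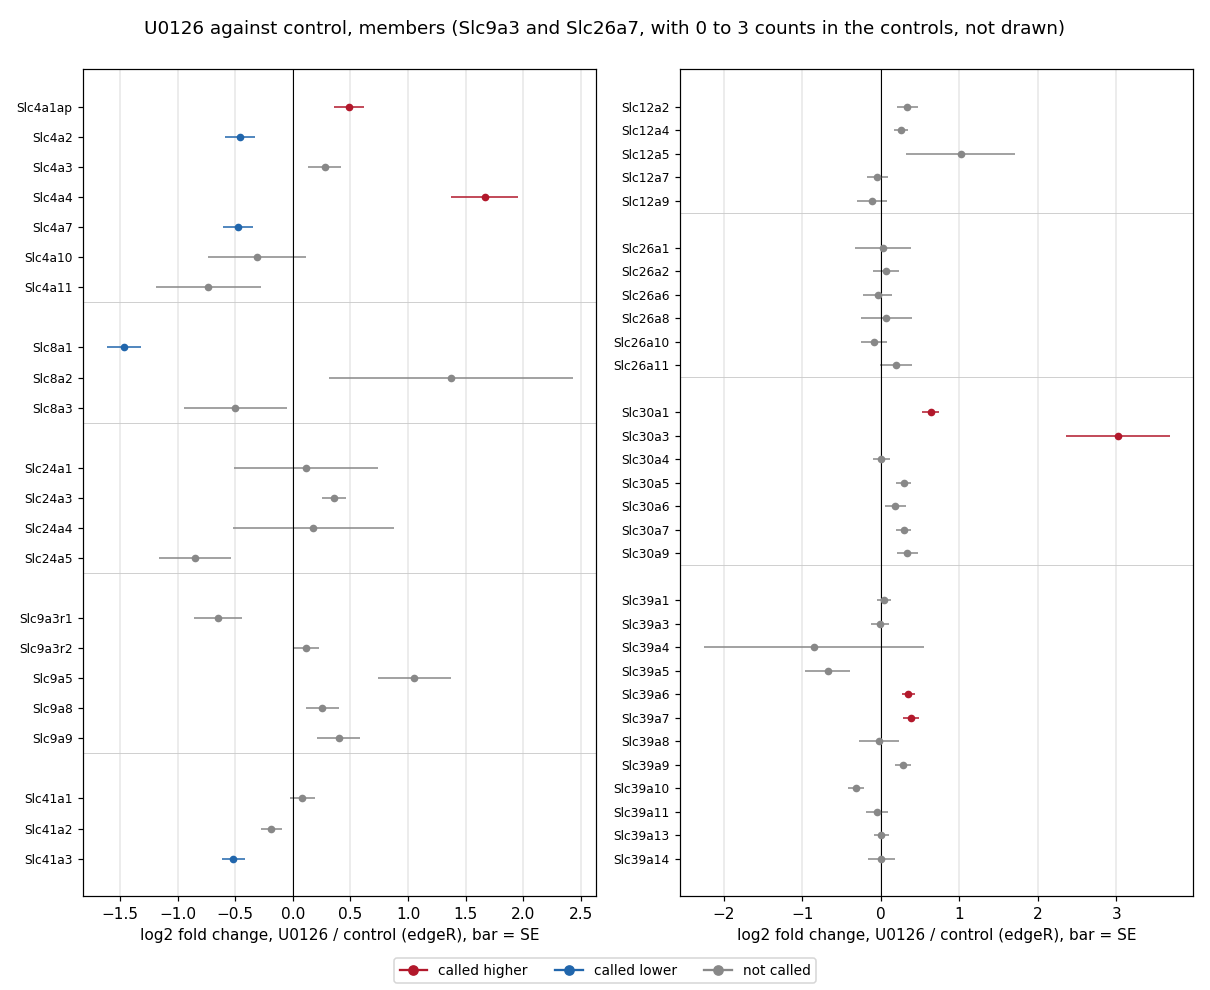
Log2 fold change of tested members, U0126 over control, from the edgeR fit on 2 against 2 libraries, with bars for 1 standard error and colours for the call. Most points lie near 0, Slc8a1 is the lowest precise value at -1.46, and Slc9a3 and Slc26a7, which had 0 to 3 counts in the controls, are not drawn.

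In the zinc group, 4 of 19 tested genes rose and none fell. Slc30a3, among the 4, passed the count filter only through its U0126 libraries. The share called was 21.1%, close to the 19.9% of all genes tested, of which 8.41% rose and 11.5% fell. Promoter sequences are shown for Slc30a1, Slc39a7 and the metallothionein gene Mt2A, which rose with U0126. Mt2A was the only gene called of the 4 tested for zinc sensing and storage. Binding of the zinc sensor MTF1 to metal response elements is the textbook route by which zinc acts on Slc30a1 and on metallothionein genes. The genes printed, Slc39a7 among them, both rose and matched the element, so they cannot show whether the element goes with the rise. Each sequence is the RefSeq sequence of the 250 bases before the annotated start, 5′ to 3′ on the gene's strand in build GRCr8. That is not the build of the expression table, in which Slc39a7 lies on the minus strand. Whether the printed Slc39a7 window matches the counted locus was not checked. Capitals mark the element's core, TGCACNC or TGCGCNC on either strand.
Slc30a1 (chr13:106021769-106022018, plus strand): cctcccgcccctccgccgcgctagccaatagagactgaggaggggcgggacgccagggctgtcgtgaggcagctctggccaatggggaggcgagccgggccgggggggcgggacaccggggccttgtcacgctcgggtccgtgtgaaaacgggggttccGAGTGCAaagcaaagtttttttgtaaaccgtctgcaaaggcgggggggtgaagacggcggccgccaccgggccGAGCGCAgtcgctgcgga
Slc39a7 (chr20:4824809-4825058, plus strand): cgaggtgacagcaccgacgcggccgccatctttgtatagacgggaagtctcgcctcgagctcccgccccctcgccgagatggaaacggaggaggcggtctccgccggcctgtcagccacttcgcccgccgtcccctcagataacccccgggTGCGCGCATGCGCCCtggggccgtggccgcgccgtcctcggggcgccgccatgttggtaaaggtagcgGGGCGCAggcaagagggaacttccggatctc
Mt2A (chr19:10838709-10838958, minus strand): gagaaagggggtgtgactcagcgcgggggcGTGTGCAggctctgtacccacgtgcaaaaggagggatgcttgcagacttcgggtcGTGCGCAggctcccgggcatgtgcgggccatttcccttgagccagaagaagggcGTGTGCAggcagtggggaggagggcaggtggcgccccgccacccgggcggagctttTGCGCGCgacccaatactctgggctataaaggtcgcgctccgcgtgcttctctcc

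Slc30a1 held 2 cores, Slc39a7 held 4 matches of which an adjoining pair overlaps, and Mt2A held 4. The promoters of Slc39a6 and Slc30a3, which also rose, held no core. A promoter was given for 42 of the 57 tested members, of which 17 held a core, and for 16 of the 19 zinc genes, of which 7 held a core and 6 held at least 2. Apart from Slc30a1 and Slc39a7, the zinc genes with a core were not called: Slc30a4, Slc30a5, Slc39a11 and Slc39a13 held 2 each and Slc39a1 held 1. Over the promoters of all 9547 tested genes with one, 31.5% held a core and 8.89% held at least 2. The match is a description of the letters in this window.

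Among the zinc exporters, Slc30a1, which carries zinc out through the plasma membrane, stood at 18.2 and 19.2 CPM, counts scaled to library size, in the controls and at 28.7 and 29.4 CPM with U0126. Both treated libraries were above both controls, and the gene rose 1.56-fold (log2 0.64 ± 0.11 SE, edgeR adjusted p = 0.00779). Slc30a3, which fills synaptic vesicles of neurons with zinc, had 2 and 4 counts in the control libraries against 26 and 19 in the treated ones. The ratio of its counts scaled by library size was 8.41, with a 95% interval of 3.58 to 24.1 that covers counting error only. The edgeR adjusted p was 0.0204, and the gene passed the count filter only through the treated libraries. Of the 4 neuron markers, Snap25 and Rbfox3 were at 0 in every library, and Syt1 had 4 and 0 counts against 6 and 8. The list summed to 8.17 and 6.27 TPM in the controls and 5.61 and 7.33 TPM with U0126, nearly all of it Tubb3, and its part in the Slc30a3 result was not tested.

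Slc30a5 and Slc30a7 load zinc into the early secretory pathway, where enzymes such as alkaline phosphatase acquire it. Slc30a5 had 33.4 and 38.0 TPM in the controls and 43.0 and 40.9 TPM with U0126 (log2 0.30 ± 0.10 SE, edgeR adjusted p = 0.0737). Slc30a7 had 34.9 and 35.6 TPM in the controls and 42.6 and 40.1 TPM with U0126 (log2 0.29 ± 0.10 SE, edgeR adjusted p = 0.0743). Groups did not overlap for either gene, yet neither passed the test on all 4 libraries, and both passed without U0126 replicate 2 (adjusted p = 0.0259 and 0.0230 by edgeR). Chosen after their values were seen, the mitochondrial zinc exporter Slc30a9 had 41.6 and 42.7 CPM against 59.9 and 46.6 CPM (edgeR adjusted p = 0.122, and 0.00307 without U0126 replicate 2), and Slc30a4 and Slc30a6 averaged 22.8 and 21.5 TPM. The fitted log2 fold changes of the 7 tested Slc30 genes ran from 0.01 for Slc30a4 to 3.02 for Slc30a3, and that of Slc30a4 turned to -0.05 with library totals alone. Without control replicate 1 or control replicate 2 the Slc30a1 call was lost (edgeR adjusted p = 0.118 and 0.0888), as was that of Slc30a3 (0.200 and 0.144, and 0.0757 without U0126 replicate 1). DESeq2 gave Slc30a3 an adjusted p of 0.0590.

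Among the zinc importers, Slc39a7 releases zinc from the endoplasmic reticulum and Golgi into the cytosol and was the most abundant member by the mean over the 4 libraries, although Slc39a1 was higher in both controls. It had 179 and 193 TPM in the controls and 214 and 252 TPM with U0126. Both treated libraries were above both controls, and Slc39a7 rose 1.31-fold (log2 0.38 ± 0.10 SE, edgeR adjusted p = 0.0394). Slc39a6, a plasma membrane importer of the LIV-1 subfamily, had 50.8 and 55.2 TPM in the controls and 63.2 and 67.1 TPM with U0126, and rose 1.28-fold (log2 0.35 ± 0.09 SE, edgeR adjusted p = 0.0301). Slc39a1, the broadly expressed plasma membrane importer, had 195 and 209 TPM in the controls and 189 and 209 TPM with U0126. Its groups overlapped, its fitted change was 0.04 ± 0.09 SE on the log2 scale (edgeR adjusted p = 0.796), and its TPM values also overlapped those of Slc39a7 in level.

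Slc39a13, which supplies zinc from the Golgi and vesicles and is the member tied to a form of Ehlers-Danlos syndrome, had 147 and 145 TPM in the controls and 132 and 148 TPM with U0126. Slc39a14, which imports zinc, iron and manganese, had 73.5 and 65.2 TPM in the controls and 54.6 and 79.7 TPM with U0126, the U0126 libraries being the lowest and the highest. Neither passed the test (edgeR adjusted p = 0.983 and 0.980), and the sign of each fitted change turned under several settings. Slc39a10, a plasma membrane importer, had 32.3 and 33.3 CPM in the controls and 26.4 and 26.3 CPM with U0126 (log2 -0.32 ± 0.10 SE, edgeR adjusted p = 0.0676, and 0.0410 scaled to library totals alone). Slc39a9, a Golgi carrier, had 71.7 and 76.2 CPM against 84.5 and 96.3 CPM (edgeR adjusted p = 0.092). Slc39a5 had 7.14 and 8.55 CPM in the controls and 3.48 and 6.35 CPM with U0126 (edgeR adjusted p = 0.146). These 5 genes were chosen after their values were seen. Slc39a3 ranged from 13.0 to 15.4 TPM, Slc39a11 from 8.51 to 10.8 TPM and Slc39a8 from 1.19 to 1.55 TPM, and Slc39a4 had 24 and 0 counts in the control libraries against 2 and 10 in the treated ones.

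Both Slc39 calls were lost when either control was left out, as were most calls of the other members. Over all alternatives the fitted log2 fold change stayed at 0.26 to 0.49 for Slc39a7 and 0.30 to 0.38 for Slc39a6. The edgeR adjusted p without control replicates 1 and 2 in turn was 0.274 and 0.231 for Slc39a7 and 0.280 and 0.232 for Slc39a6, and library totals alone gave 0.0630 and 0.0514. With 1 U0126 library left out, Slc39a9 passed without replicate 1 (edgeR adjusted p = 0.0129), and Slc39a10 and Slc39a5 passed without replicate 2 (0.0429 and 0.00236).

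**Figure D3:**
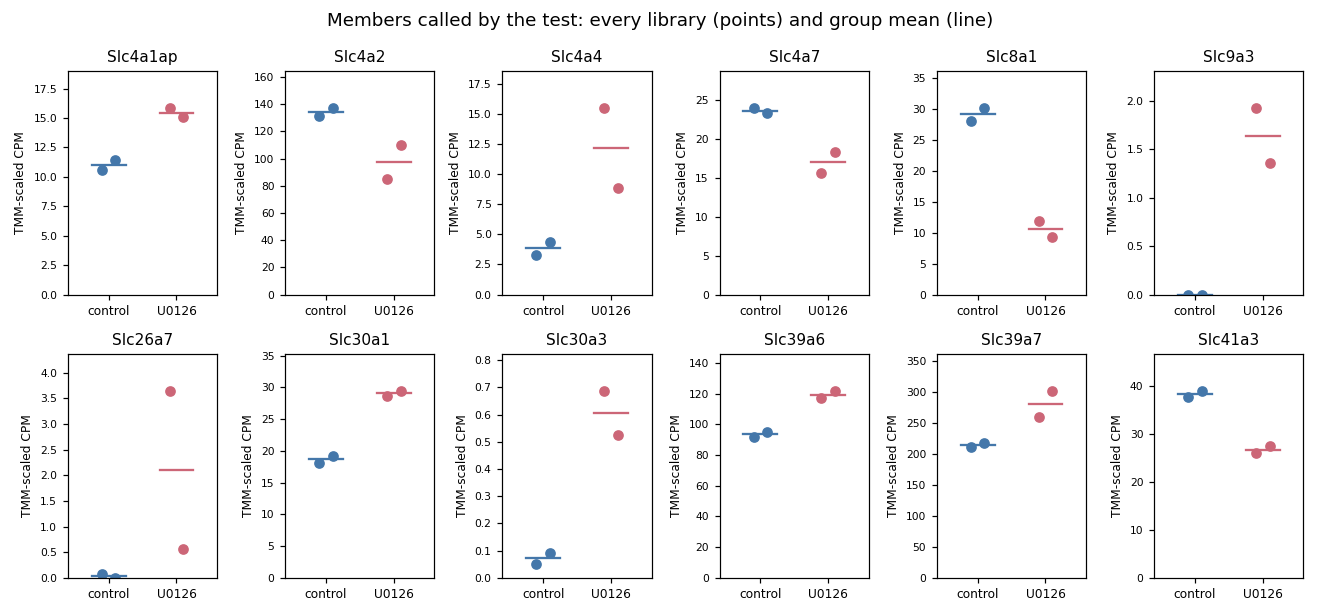
CPM of the 12 members that passed the edgeR test, with 1 point per library (2 controls, 2 U0126) and a line at each group's mean. Every panel shows both U0126 libraries on the same side of both controls, and in Slc26a7 the U0126 libraries lie far apart, at 138 and 20 counts.

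In the bicarbonate family Slc4, 1 of 6 tested transporters rose and 2 fell. Over all genes tested, 8.41% rose and 11.5% fell, and a family this small gives no firm share of its own. The family's summed level was 76.7 and 82.7 TPM in the controls and 57.9 and 66.4 TPM with U0126. Slc4a2, the chloride/bicarbonate exchanger AE2 that exports base, was its most abundant member, with 57.4 and 62.1 TPM in the controls and 36.1 and 47.2 TPM with U0126. The groups did not overlap, and Slc4a2 fell 1.38-fold (log2 -0.46 ± 0.13 SE, edgeR adjusted p = 0.0484). Slc4a7, the electroneutral sodium/bicarbonate cotransporter NBCn1 that brings base in, had 11.3 and 11.2 TPM in the controls and 7.26 and 8.34 TPM with U0126. Slc4a7 fell by a similar factor, 1.39-fold (log2 -0.48 ± 0.13 SE, edgeR adjusted p = 0.0407).

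Slc4a4, the electrogenic sodium/bicarbonate cotransporter NBCe1, moved the other way. It had 1.62 and 2.06 TPM in the controls and 6.63 and 3.85 TPM with U0126, so both treated libraries were higher, though they differed from each other. Slc4a4 rose 3.18-fold (log2 1.67 ± 0.29 SE, edgeR adjusted p = 0.0084). Per length, Slc4a4 stayed below Slc4a7 and Slc4a2 in every library. Slc4a3, the exchanger AE3, had 14.4 and 15.7 CPM in the controls and 19.9 and 16.6 CPM with U0126 and did not pass (edgeR adjusted p = 0.220). It was chosen after its values were seen, and the others tested, Slc4a10 and Slc4a11, averaged under 1 TPM. For Slc4a2 the edgeR adjusted p was 0.202 and 0.276 without control replicates 1 and 2 in turn, for Slc4a7 0.261 and 0.240, and for Slc4a4 0.0737 and 0.0416. Slc4a7 was also lost without U0126 replicate 1 (0.0568), Slc4a2 was lost with no filter on low counts (0.0547), and Slc4a3 passed without U0126 replicate 2 (0.0446), all by edgeR.

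In the proton exchanger family Slc9, 1 of 6 tested transporters rose and none fell, against 8.41% rising and 11.5% falling over all genes tested. Slc9a3, the exchanger NHE3 of the apical membrane of kidney tubule and intestine, had no count in either control and 73 and 49 counts with U0126, on chr1:31734327-31777070 of rn6. Set against a floor of 3 counts over the controls, Slc9a3 was 45.6-fold higher with U0126 (edgeR adjusted p = 0.00222). It passed the count filter only through the U0126 libraries, where it was high. The 95% counting interval of the ratio had a lower limit of 36.5 and no upper limit. The level of Slc9a3 was low, at 0.637 and 0.453 TPM with U0126. The call held without each library in turn, with an edgeR adjusted p of at most 0.0141. The epithelial markers Epcam, Cdh1 and Cldn4 were at 0 in every library, while Krt18 had 0 counts in both controls and 10 in each U0126 library, and the 5-gene list summed to 2.75 and 3.05 TPM in the controls and 3.87 and 3.99 TPM with U0126. Their part in the Slc9a3 result was not tested.

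The Slc9 exchangers named next were chosen after their values were seen. Slc9a5 had 1.59 and 2.25 CPM in the controls and 4.93 and 3.07 CPM with U0126 and did not pass (edgeR adjusted p = 0.0590), but did without U0126 replicate 2 (0.00582). Slc9a8, a Golgi exchanger, had 9.48 and 8.57 CPM in the controls and 10.7 and 10.9 CPM with U0126 (edgeR adjusted p = 0.259). Slc9a9, an endosomal exchanger, had 5.09 and 4.34 CPM in the controls and 6.56 and 5.86 CPM with U0126 (edgeR adjusted p = 0.184). For these exchangers and Slc9a3, both U0126 libraries were above both controls in CPM, and the fitted change was positive under every alternative run. Groups did not overlap, in either direction, for 62.8% of all genes tested. Because Slc9a5, Slc9a8 and Slc9a9 were chosen with their values known, their shared direction cannot speak for the family.

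Of the 3 rows that carry a family name without being a transporter, Slc4a1ap rose from 10.6 and 11.5 CPM to 15.8 and 15.1 CPM, 1.40-fold (log2 0.49 ± 0.13 SE, edgeR adjusted p = 0.0423). DESeq2 did not call Slc4a1ap (adjusted p = 0.0854), and edgeR did not without control replicate 1 or control replicate 2 (0.316 and 0.224), with no filter on low counts (0.0534) or with library totals alone (0.0606). Slc9a3r1 (NHERF1), a scaffold that ties Slc9a3 and other membrane proteins to ezrin, had 37.0 and 37.7 CPM in the controls and 18.1 and 29.5 CPM with U0126. Both treated libraries were lower, and the edgeR test did not pass (log2 -0.65 ± 0.21 SE, adjusted p = 0.0728), whereas DESeq2 and limma-voom put it lower (adjusted p = 0.0141 and 0.0499). It also passed in edgeR without U0126 replicate 1 (0.0414) or U0126 replicate 2 (0.00011). Slc9a3r2 (NHERF2) had 40.0 and 42.6 CPM in the controls and 48.0 and 41.3 CPM with U0126, with overlapping groups (edgeR adjusted p = 0.515). Both scaffolds were chosen after their values were seen.

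Among the calcium exchangers of Slc8 and Slc24, 1 of 7 tested genes fell and none rose. That is a share of 14.3% called, against 19.9% of all genes tested. Slc8a1, the sodium/calcium exchanger NCX1 best known from heart muscle, lies on chr6:4258991-4520604 of rn6. It had 17.2 and 19.1 TPM in the controls and 6.99 and 5.56 TPM with U0126. The groups were far apart relative to the spread within each, and Slc8a1 fell 2.76-fold (log2 -1.46 ± 0.15 SE, edgeR adjusted p = 0.000988). Leaving out each library in turn kept the call, with an edgeR adjusted p of at most 0.0157. Of the 5 skeletal muscle markers, Myod1, Cdh15 and Des fell, while Myog had 6 and 0 counts against 25 and 8, and Myh3 had 44 and 57 counts against 63 and 149 without passing (edgeR adjusted p = 0.0982). The 5-gene list summed to 10.2 and 8.29 TPM in the controls and 3.22 and 4.05 TPM with U0126. Their part in the Slc8a1 result was not tested.

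Slc24a3, the potassium-dependent exchanger NCKX3, was the most abundant calcium exchanger per length in every library, with 35.0 and 39.6 TPM in the controls and 47.1 and 44.4 TPM with U0126. Both treated libraries were higher, and the change missed the threshold (log2 0.36 ± 0.10 SE, edgeR adjusted p = 0.0526). It passed with a minimum count of 50 (0.0454) and without U0126 replicate 2 (0.0174). Slc24a5, an exchanger of pigment organelles, had 6.31 and 5.51 TPM in the controls and 4.11 and 2.14 TPM with U0126 (log2 -0.85 ± 0.31 SE, edgeR adjusted p = 0.106, and 0.00305 without U0126 replicate 1). Slc8a3 had 0.782 and 1.08 CPM in the controls and 0.791 and 0.525 CPM with U0126, with overlapping groups (edgeR adjusted p = 0.481). Slc8a2, with 0 and 17 counts in the control libraries against 26 and 13 in the treated ones, and Slc24a1 and Slc24a4 were near the lower limit of detection. Slc24a5 shares 99 bases with Myef2, and the labels do not give the strand setting of the counting: reads there could have come from either gene.

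In the chloride group, Slc12 and Slc26 together, 1 of 13 tested genes rose and none fell. The share called was 7.69%, against 19.9% of all genes tested. Slc12a4, the potassium/chloride cotransporter KCC1 of most cells, was by far the most abundant, with 86.1 and 94.4 TPM in the controls and 99.9 and 107 TPM with U0126. Groups did not overlap, and the change did not pass (log2 0.26 ± 0.09 SE, edgeR adjusted p = 0.0865, and 0.0349 without U0126 replicate 1). Slc12a9, a relative that interacts with the cotransporters, averaged 13.9 TPM, with 9.96 and 12.8 CPM in the controls and 9.28 and 11.8 CPM with U0126, and its groups overlapped (edgeR adjusted p = 0.716). Slc12a2, the sodium/potassium/chloride cotransporter NKCC1 that loads cells with chloride, had 10.03 and 13.2 TPM in the controls and 13.2 and 14.8 TPM with U0126 (log2 0.34 ± 0.13 SE, edgeR adjusted p = 0.127) and was chosen after its values were seen. The potassium/chloride cotransporter Slc12a7 averaged 8.98 TPM, and the neuronal Slc12a5 averaged 0.317 TPM. Slc12a8, below the filter and not tested, had 21 and 8 counts in the control libraries against 6 and 0 in the treated ones. Control replicate 2 and U0126 replicate 1 lay close, at 0.184 and 0.158 CPM. The ratio of its summed counts scaled by library size was 0.232. Its 95% interval of 0.0788 to 0.569 covers counting error only, and Slc12a8 was chosen after its values were seen.

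Slc26a10 and Slc26a2 had the highest mean TPM of the Slc26 genes over the 4 libraries, with Slc26a11 above Slc26a2 in U0126 replicate 1 (4.44 against 4.07 TPM). Slc26a10 had 7.79 and 8.78 CPM in the controls and 8.46 and 7.18 CPM with U0126 (edgeR adjusted p = 0.768). Slc26a2, the sulfate transporter that supplies sulfate for proteoglycans, had 3.70 and 4.38 TPM in the controls and 4.07 and 4.01 TPM with U0126, the treated libraries lying within the range of the controls (log2 0.06 ± 0.17 SE, edgeR adjusted p = 0.830). Slc26a7, an anion exchanger of kidney, stomach and thyroid, had 3 and 0 counts in the control libraries against 138 and 20 in the treated ones. The ratio of its summed counts scaled by library size was 59.1, with a 95% counting interval of 19.9 to 289.6. Although edgeR called it higher (adjusted p = 0.0210), Slc26a7 passed the count filter only through the treated libraries. Its U0126 libraries differed severalfold, and the call and its size rested on single libraries: the fitted log2 fold change was 9.36, 4.73, 3.82 and 6.53 without control replicates 1 and 2 and U0126 replicates 1 and 2, with edgeR adjusted p of 0.0702, 0.128, 0.0571 and 0.000151. The limma-voom adjusted p was 0.0657. The epithelial marker values given beside Slc9a3 apply here too, and their part was not tested.

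The other tested Slc26 genes averaged 3.91 TPM (Slc26a11, a lysosomal and plasma membrane anion carrier), 3.23 TPM (Slc26a6, a chloride/oxalate and bicarbonate exchanger), 1.06 TPM (Slc26a1) and 0.848 TPM (Slc26a8). Slc26a1 lies within Idua, which is on the opposite strand and overlaps it by 5607 bases, so its value is uncertain. Idua had 1974 and 2278 counts in the control libraries against 3946 and 3391 in the treated ones. Slc26a7 overlaps Lrrc69 on its own strand by 44273 bases, and Lrrc69 had 0, 0, 5 and 0 counts. Shorter overlaps with a neighbour of at least 100 counts were found for genes that include Slc26a10 and Slc39a5.

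Of the magnesium carriers, Slc41a3, which exports magnesium from mitochondria, fell. It had 30.3 and 32.5 TPM in the controls and 20.4 and 21.8 TPM with U0126, and fell 1.43-fold (log2 -0.52 ± 0.10 SE, edgeR adjusted p = 0.0126). Slc41a2 had 25.02 and 26.6 TPM in the controls and 21.2 and 22.2 TPM with U0126, lower in both treated libraries without passing (log2 -0.19 ± 0.09 SE, edgeR adjusted p = 0.190). Slc41a1, the plasma membrane sodium/magnesium exchanger, averaged 13.7 TPM. The Slc41a3 call was lost without either control replicate 1 or control replicate 2 (edgeR adjusted p = 0.125 and 0.163).

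Genes that work with these transporters were taken from 7 lists chosen by role. Of 96 partner genes found, 73 were tested, 5 rose and 13 fell. That is 24.7%, against the background of 19.9% (8.41% higher and 11.5% lower), and their median log2 fold change was 0.06. Each list is short, so the counts within it do not give the list a direction. With 1 library left out, the number of partner genes called moved as the number over all genes did. Both were smaller without a control library and larger without a U0126 library.

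Carbonic anhydrases, which convert carbon dioxide and water to bicarbonate and protons, had 2 of 5 tested genes higher, against 8.41% of all genes tested. Car9, the membrane-bound enzyme on the cell surface, had 44.9 and 52.0 CPM in the controls and 199.995 and 159 CPM with U0126, and rose 3.71-fold (log2 1.89 ± 0.14 SE, edgeR adjusted p = 0.000294). Car11, a relative without catalytic activity, had 6.40 and 5.70 CPM in the controls and 14.2 and 10.8 CPM with U0126 and rose 2.07-fold (edgeR adjusted p = 0.0085). Of the bicarbonate and proton exchange regulators, 3 of 9 fell and none rose, against 11.5% falling and 8.41% rising over all genes tested. Ezr (ezrin), which links membrane transporters to actin, had 15.1 and 14.3 CPM in the controls and 4.51 and 5.72 CPM with U0126 and fell 2.87-fold (log2 -1.52 ± 0.17 SE, edgeR adjusted p = 0.0014). Its abundant relative Msn (moesin) fell 2.23-fold, from 1273 and 1301 CPM to 498 and 658 CPM (edgeR adjusted p = 0.0019). The third, Ahcyl1 (IRBIT), a regulator of Slc4a4, fell 1.25-fold (edgeR adjusted p = 0.0386).

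Of the calcium pumps and mitochondrial calcium carriers, 3 of 11 fell and none rose. For this list and the next, the shares over all genes tested were 11.5% falling and 8.41% rising. Atp2a2, the pump SERCA2 that fills the endoplasmic reticulum, had 530.04 and 548 CPM in the controls and 345 and 378 CPM with U0126 and fell 1.49-fold (edgeR adjusted p = 0.00603). The plasma membrane pump Atp2b1 fell 1.32-fold (edgeR adjusted p = 0.0349). Of the sodium-potassium pump genes, whose gradient the sodium-coupled carriers use, 2 of 8 fell and 1 rose, all of them regulators of the FXYD family. Fxyd5 fell 2.10-fold, from 116 and 89.2 CPM to 49.1 and 48.5 CPM, and Fxyd6 fell 3.36-fold, from 5.32 and 4.69 CPM to 1.34 and 1.63 CPM (edgeR adjusted p = 0.00224 and 0.00301). Fxyd1 rose 1.82-fold, from 23.1 and 19.3 CPM to 41.02 and 36.2 CPM (edgeR adjusted p = 0.0045).

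Of the kinases of the cation-chloride cotransporters and the volume-regulated channels, 2 of 20 fell and 1 rose. Beside this list and those that follow stand the shares over all genes tested, 11.5% falling and 8.41% rising. Wnk4 had 31.0 and 33.7 CPM in the controls and 13.1 and 19.2 CPM with U0126 (log2 -1.002 ± 0.18 SE, edgeR adjusted p = 0.0098), and Wnk3 fell 2.33-fold from 3.23 and 3.997 CPM to 1.77 and 1.33 CPM (edgeR adjusted p = 0.0212). Both are kinases upstream of the cotransporters' phosphorylation. Clcn6, an endosomal chloride/proton exchanger, rose 1.35-fold (edgeR adjusted p = 0.0326). Of 4 zinc sensing and storage genes, 1 rose: Mt2A, a metallothionein that binds zinc and copper, went from 23.3 and 19.96 CPM to 33.4 and 41.7 CPM, 1.73-fold (log2 0.79 ± 0.14 SE, edgeR adjusted p = 0.00994). Its promoter is printed with that of Slc30a1, which rose 1.56-fold. Of 16 magnesium channels and carriers, 3 fell and none rose: Nipal1 fell 5.58-fold, from 6.20 and 8.73 CPM to 1.21 and 1.46 CPM (edgeR adjusted p = 0.00106), Nipal4 fell 4.12-fold, from 2.24 and 2.14 CPM to 0.290 and 0.773 CPM (0.0231), and Tusc3 fell 1.27-fold (0.0361).

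Fxyd1, Clcn6, Ahcyl1, Atp2b1 and Tusc3 were chosen after their values were seen. The calls of Car9, Ezr, Msn, Fxyd5, Fxyd6 and Nipal1 held with each library left out. Without control replicate 2, edgeR did not call Car11 (adjusted p = 0.0969), Atp2a2 (0.0784), Fxyd1 (0.0664), Wnk3 (0.216), Wnk4 (0.0872), Clcn6 (0.263), Mt2A (0.117), Nipal4 (0.135), Ahcyl1 (0.271), Atp2b1 (0.329) or Tusc3 (0.236). Without control replicate 1, the same genes except Fxyd1 were not called, at 0.0549 (Mt2A) to 0.295 (Tusc3). The fitted log2 fold change of Nipal4 was -1.50 without U0126 replicate 1 and -2.91 without U0126 replicate 2.

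**Figure D4:**
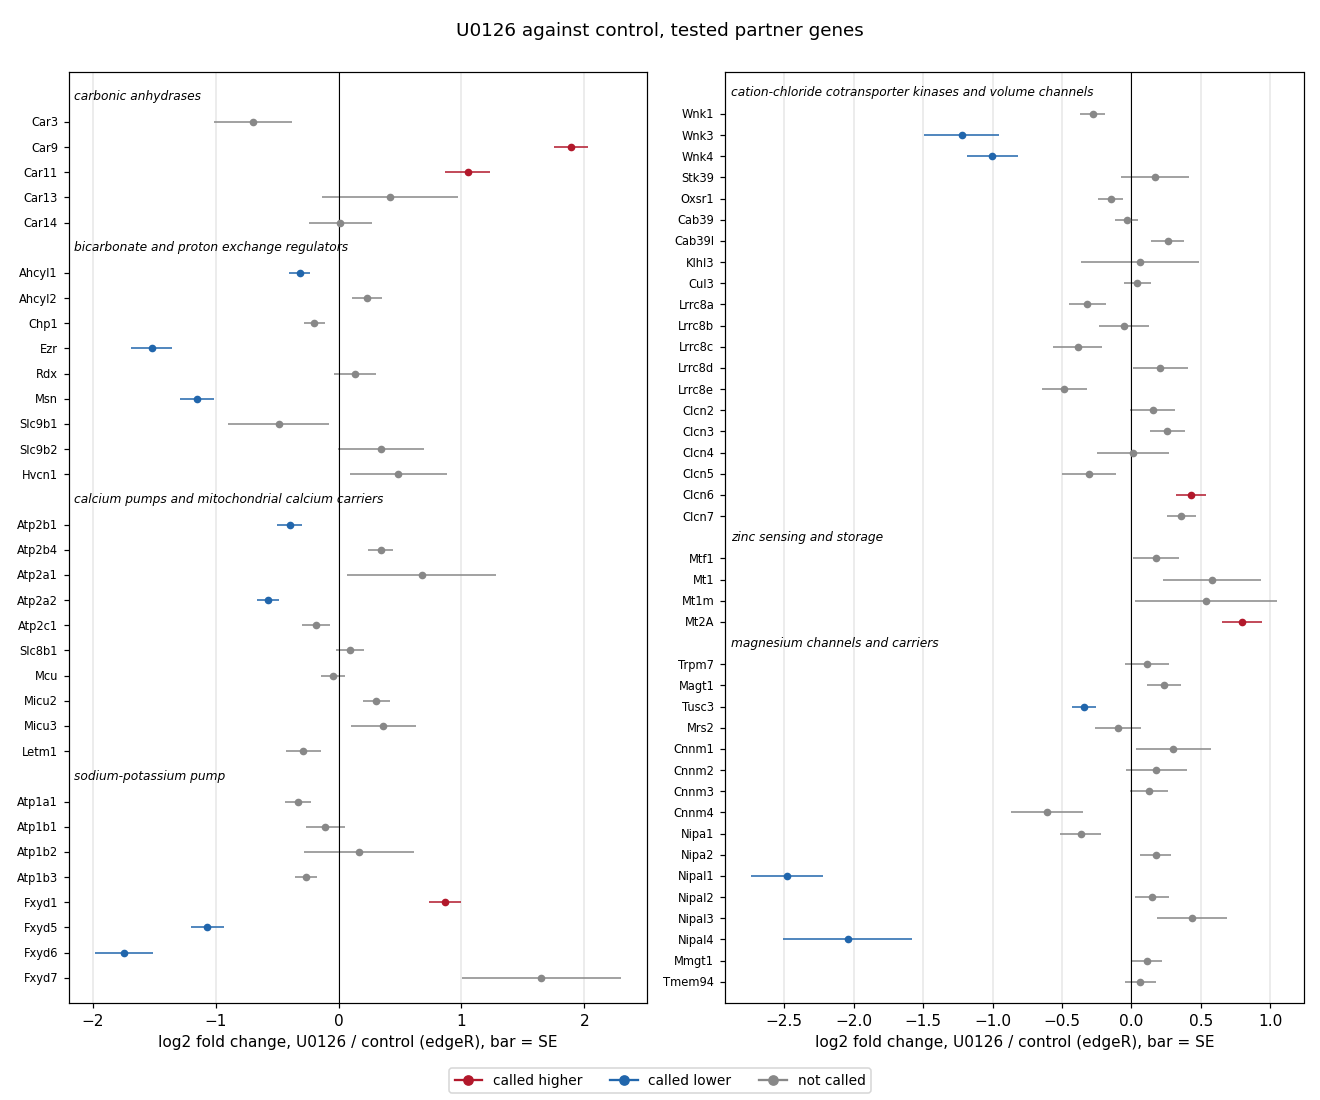
Log2 fold change of tested partner genes by list, U0126 over control, with bars for 1 standard error (edgeR, 2 against 2 libraries) and colours for the call. Car9 is the highest called value at 1.89, and Nipal1 the lowest at -2.48.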

How the data were processed

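Whole-transcriptome RNA-seq was available for 4 libraries, 2 control and 2 U0126. The authors deposited a gene table with read counts, TPM and FPKM per library, per the file headers. The submitters' processing notes name the build rn6. Aligner, counter, strand setting and annotation: not given in the sources used here. Deposited counts were tested. Deposited TPM, which is per gene length, was used only for levels, and deposited FPKM was not used.

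Counts were fitted in edgeR 4.0.16 (R 4.3.3) with TMM scaling and the quasi-likelihood F test, two-sided, after filterByExpr (minimum count 10, minimum total 15). Benjamini-Hochberg adjustment ran over all 14023 genes tested, with a threshold of 0.05. CPM uses TMM-scaled library sizes. Standard errors were taken as |log2 fold change| over the root of F. With no count in a group, the floor was 3 counts over the libraries of that group together. Intervals and floors cover counting error only, since reads without molecular identifiers are not independent molecules. At this depth 3 counts in a single library equal 0.0689 to 0.0829 CPM, which is not the pooled floor. Each group has 2 libraries.

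Alternatives were RLE factors, library totals alone, no filter, a minimum count of 50, DESeq2 1.42.0, limma-voom (limma 3.58.1), the replicate number as a block, and leaving out each library. The members and lists were chosen with earlier results of these data known. Named genes were every member called, the 2 most abundant tested members by mean TPM in each family, and in each partner list the 2 with the smallest adjusted p among those called, or else the most abundant tested one. The code was tested on simulated data with 13850 genes. There, 84% of 2-fold and 99% of 4-fold changes were recovered, and 13.3% of 211 calls fell on unchanged genes. That share was above the threshold of 0.05, so calls close to the threshold are less certain than their adjusted p alone states. Recovery was not split by count level, so the rates cannot be applied to genes with few counts. The simulation also gave far fewer calls than the 2792 of the data. Of the partner genes, Car5a, Car5b and Mt1a were not matched by symbol, and the symbol Mt2a was matched only in the spelling Mt2A. Values of some genes are not reported here singly and are not drawn, though they remain in the counts, medians and sums.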

Additional observations from a re-analysis of the deposited data

How the results depend on the processing

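The number of genes called was 2792 with all libraries and ranged from 899 to 4644 with 1 library left out. Members called higher numbered 8, and 5 both with library totals alone and with the replicate block, with a range of 1 to 14 over the leave-one-out fits. Members called lower numbered 4, with a range of 1 to 7. Partner genes called higher ranged from 1 to 11 and those called lower from 5 to 21. Calls among the named genes were lost mostly without a control library (21 without control replicate 1 and 21 without control replicate 2) and gained mostly without U0126 replicate 2 (9). A fit without 1 library leaves a group with a single library, which is assumed to vary like the other group.

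Fitted log2 fold changes that changed sign were of genes not called. Slc39a13 was -0.0013 with RLE factors, -0.050 with library totals alone, -0.0016 with no filter and -0.0047 in DESeq2. Slc39a14 was -0.045 with library totals alone, -0.011 in limma-voom and -0.010 with the replicate block. Slc30a4 was -0.045 with library totals alone and -0.0012 in DESeq2, and Slc39a1 was -0.014 with library totals alone. With 1 library left out, the ranges were Slc12a9 from -0.31 to 0.080, Slc26a2 from -0.033 to 0.16, Slc26a10 from -0.21 to 0.020, Slc30a4 from -0.092 to 0.094, Slc39a1 from -0.033 to 0.10, Slc39a13 from -0.083 to 0.080 and Slc39a14 from -0.29 to 0.25.

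Replicate numbers share only a number in the labels: deviations of same-numbered libraries from their group means correlated at -0.0461 across genes. With the number as a block, 2371 genes were called, with 5 members higher and 4 lower. Under the block Slc4a1ap (adjusted p = 0.0692), Slc4a7 (0.0608), Slc30a3 (0.0539) and Slc39a6 (0.0519) were no longer called, nor were the partners Ahcyl1, Atp2b1, Clcn6 and Tusc3 (0.0554 to 0.0641), and Slc9a3r1 was called lower (0.0415), all by edgeR. Library totals alone moved the median log2 fold change of all genes by -0.05.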
